A study of Mus musculus with 20 samples.

Results

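The regions described are 2245 RAD21 peaks that appeared at promoters of mouse embryonic stem cells (mESCs) after CTCF was degraded and that held no MAZ peak. RAD21 is a subunit of cohesin. Each of them was a RAD21 peak of the CTCF-depleted cells (ΔCTCF) that overlapped, by as little as 1 bp, neither a RAD21 peak of untreated cells (WT) nor a MAZ peak of ΔCTCF, and its summit lay within 1 kb of an annotated transcript start. They are called MAZ-unbound promoter peaks, or members, below. They were chosen from measured peaks, so their absence from the RAD21 list of WT and from the MAZ list of ΔCTCF, and their nearness to a start, are conditions of the choice and not findings. They made up 2245 of the 17912 RAD21 peaks of ΔCTCF, of which 10019 were relocalized, that is, had no partner in WT. Of the relocalized peaks, 3551 lay at a start, and 1306 of those overlapped a MAZ peak of ΔCTCF (MAZ-bound promoter peaks). A further 1141 promoter peaks of ΔCTCF had a RAD21 partner in WT (retained promoter peaks), and 6000 relocalized MAZ-unbound peaks lay away from starts. All 12 peak lists together held 136043 peaks.

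ChIP-seq of RAD21, MAZ and CTCF was done in E14 mESCs kept with LIF and 2i, inhibitors of MEK and GSK3 that hold the cells in the ground state. In every group CTCF carried an auxin-inducible degron (CTCF-AID), so the WT cells are untreated degron cells and not an unmodified line. ΔCTCF cells are the same cells after 2 days of auxin. ΔMAZ cells are CTCF-AID cells in which Maz had been knocked out with a CRISPR guide, untreated, and ΔCTCF/ΔMAZ cells are these after 2 days of auxin. The libraries of the knockout carry the name of 1 clone, so the knockout and the clone cannot be told apart. The series has 20 samples, of which 12 had a peak list, from 3 antibodies and 4 conditions. The other 8 were not analysed here. With 1 list per group there was no replicate to give a spread and no test was possible. Shares therefore carry a Wilson 95% interval, which holds no more than counting error within single libraries, and no p-value is given. Peak lists hold no expression values, so markers of the stem cell state could not be examined.

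Cohesin is a ring-shaped complex that is loaded onto chromatin and reels in DNA to form loops until a barrier stops it. CTCF is the best-known barrier. MAZ is a zinc finger protein that binds G-rich sequence, much of it in promoters, and can act as an insulator. Active promoters carry the transcription machinery and in mammals often lie in CpG islands, stretches rich in G, C and the dinucleotide CpG.

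To show the DNA that these peaks sat on, 8 windows that reach 100 bases to either side of the summit are printed from the mm10 genome. They are the leading members of 4 kinds, taken in rank order, passing over repeats and windows with a UTR base. The first pair had high RAD21 fold enrichment in ΔCTCF, the second pair were called in all 3 RAD21 lists other than WT, the third pair held a MAZ peak in WT, and the last pair were closest to the start of a gene of another type than protein-coding. Capitals mark matches to 14 short strings that are spelled out further below. The windows are Pfdn4 at chr2:170511017-170511217 (+ strand), Zfp738 at chr13:67683614-67683814 (- strand), Mrpl34 at chr8:71464724-71464924 (+), Gm23099 at chr7:19461594-19461794 (-), Otx1 at chr11:22001955-22002155 (-), Gtpbp6 at chr5:110107519-110107719 (-), Rnu12 at chr15:83149957-83150157 (+) and Gm31342 at chr15:67039461-67039661 (+), each written 5′ to 3′ on the strand of the gene.
Pfdn4: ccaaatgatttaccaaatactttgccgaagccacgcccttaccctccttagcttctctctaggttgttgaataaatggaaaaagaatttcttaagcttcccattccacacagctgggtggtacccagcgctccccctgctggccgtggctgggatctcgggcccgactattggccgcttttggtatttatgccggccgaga
Zfp738: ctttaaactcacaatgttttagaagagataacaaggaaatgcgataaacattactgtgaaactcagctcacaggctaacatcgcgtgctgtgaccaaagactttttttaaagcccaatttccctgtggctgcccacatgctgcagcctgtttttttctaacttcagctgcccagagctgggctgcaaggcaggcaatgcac
Mrpl34: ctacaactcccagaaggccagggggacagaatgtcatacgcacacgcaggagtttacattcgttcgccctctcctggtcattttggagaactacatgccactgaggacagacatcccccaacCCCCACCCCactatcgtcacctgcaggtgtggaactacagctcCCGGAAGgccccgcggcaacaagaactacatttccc
Gm23099: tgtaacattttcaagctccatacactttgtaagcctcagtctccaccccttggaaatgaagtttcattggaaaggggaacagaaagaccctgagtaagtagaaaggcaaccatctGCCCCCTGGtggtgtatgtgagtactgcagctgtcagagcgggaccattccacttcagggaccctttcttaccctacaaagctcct
Otx1: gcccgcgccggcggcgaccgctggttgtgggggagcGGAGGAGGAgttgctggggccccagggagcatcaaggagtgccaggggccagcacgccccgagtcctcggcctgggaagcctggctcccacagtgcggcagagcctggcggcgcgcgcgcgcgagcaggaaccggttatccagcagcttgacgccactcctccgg
Gtpbp6: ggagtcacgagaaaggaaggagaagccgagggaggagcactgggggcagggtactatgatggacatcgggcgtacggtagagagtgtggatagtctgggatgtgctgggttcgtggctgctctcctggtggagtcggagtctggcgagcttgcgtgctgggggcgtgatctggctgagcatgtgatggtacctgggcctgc
Rnu12: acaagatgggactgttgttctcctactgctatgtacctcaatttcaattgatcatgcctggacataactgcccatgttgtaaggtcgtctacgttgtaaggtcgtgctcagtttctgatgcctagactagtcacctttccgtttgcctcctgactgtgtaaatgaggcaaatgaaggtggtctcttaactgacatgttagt
Gm31342: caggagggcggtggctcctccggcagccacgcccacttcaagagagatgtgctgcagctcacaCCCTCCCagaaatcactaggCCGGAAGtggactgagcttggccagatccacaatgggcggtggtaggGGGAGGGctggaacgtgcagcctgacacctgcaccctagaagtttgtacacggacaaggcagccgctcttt
Of these windows, 4 held none of the strings. The Mrpl34 window held a G box of the PATZ1 kind and an ETS site, the Gm23099 window part of the CTCF core, the Otx1 window a GGA repeat and the Gm31342 window the MAZ core, in 2 places, and an ETS site. GC content went from 44.3% at Rnu12 to 73.6% at Otx1.

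The MAZ-unbound promoter peaks were weak. Their fold enrichment, the read pileup at the summit over the local background, went from 2.39 to 13.3 with quartiles of 3.76, 4.19 and 4.76. The median of the whole RAD21 list of ΔCTCF was 4.85. MAZ-bound promoter peaks had a median of 4.29 and retained ones of 6.12. The median pileup at the summit was 18 reads, and 1075 of the 2245 (47.9%, 45.8 to 50.0) had a −log10 q of 5 or more. The RAD21 library of ΔCTCF was 2.18 times as deep as that of WT, 1.69 times as deep as ΔMAZ and 2.34 times as deep as ΔCTCF/ΔMAZ. When the pileups and backgrounds were scaled to the depth of WT, 1473 (65.6%, 63.6 to 67.5) would still have passed the limit of the WT list. At the depth of ΔCTCF/ΔMAZ only 1108 (49.4%, 47.3 to 51.4) would have passed. For peaks missing from those lists, depth and condition cannot be told apart.

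Peaks near the limits of the choice are given as a description. Just inside 1 kb lay a peak 993 bp upstream of the start of Gm20692, with a fold enrichment of 3.65, and one 993 bp downstream of Igf2bp2, with 3.57. Just outside lay a peak 1003 bp downstream of 1300014J16Rik, with 8.81, and one 1003 bp upstream of Gm33035, with 3.81. The gap to the nearest MAZ peak of ΔCTCF had a median of 65563 bp. It was at most 1 kb for 302 peaks (13.5%, 12.1 to 14.9), and 1682 (74.9%, 73.1 to 76.7) had no MAZ peak of either WT or ΔCTCF within 1 kb. A RAD21 peak of WT lay within 1 kb of 144 (6.41%, 5.47 to 7.50).

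Summits gathered at the starts themselves. Of the 2245, 946 (42.1%, 40.1 to 44.2) lay within 100 bp of the nearest start, and the quartiles of the signed distance were -130, -9 and 134 bp. Upstream lay 1182, downstream 1053 (46.9%, 44.8 to 49.0) and exactly at the start 10. MAZ-bound promoter peaks lay further to the upstream side, with 38.4% (35.8 to 41.0) downstream and quartiles of -145, -33 and 55 bp. The share downstream was 8.54 percentage points higher without MAZ (95% Newcombe interval 5.17 to 11.86), and the share within 100 bp differed by -6.48 points (-9.87 to -3.09), MAZ-unbound minus MAZ-bound. Retained promoter peaks had 33.2% (30.5 to 36.0) downstream. When a −log10 q of 5 or more was required in every list, 41.5% (38.8 to 44.3) lay downstream.

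**Figure D1:**
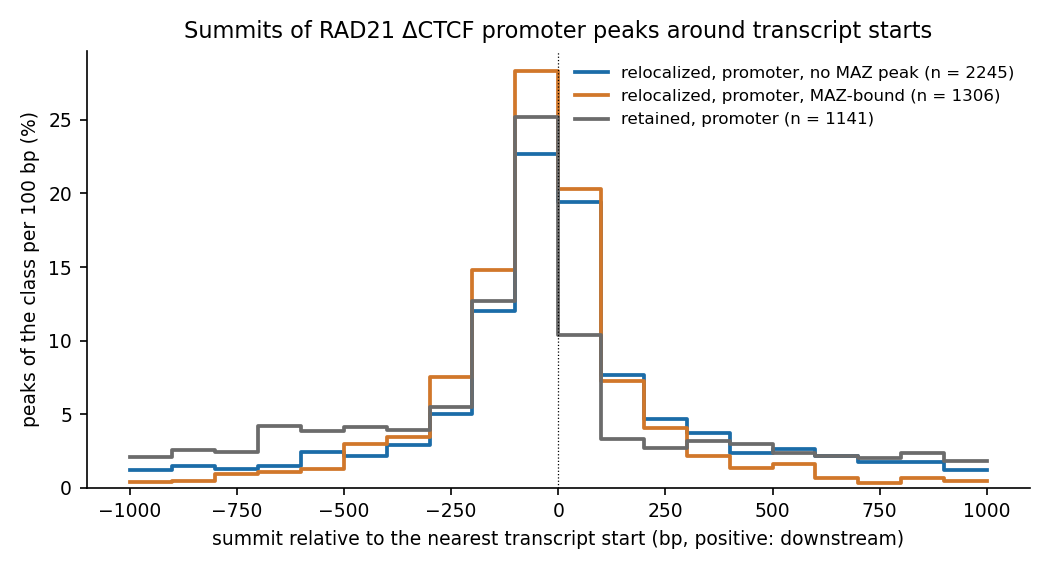
Position of RAD21 ΔCTCF summits relative to the nearest transcript start in bins of 100 bp (horizontal axis, bp, positive downstream) as a percentage of each class (vertical axis), for MAZ-unbound, MAZ-bound and retained promoter peaks. The bin just upstream of the start holds 22.7% of the MAZ-unbound and 28.3% of the MAZ-bound peaks, the bin just downstream 19.4% and 20.3%, and the MAZ-unbound line (blue) stays above the MAZ-bound one (orange) from 100 bp downstream onward.

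By annotation, a total of 766 summits (34.1%) lay outside any gene, 576 (25.7%) in a UTR, 553 (24.6%) in an intron, 183 (8.15%) in an exon of a non-coding transcript and 167 (7.44%, 6.42 to 8.60) in a coding exon. Coding exons held 3.98% (3.05 to 5.18) of the MAZ-bound summits. Starts of both strands lay within 1 kb of 485 MAZ-unbound peaks (21.6%, 20 to 23.4). Whether the starts point away from or toward each other was not checked, so this is not a count of divergent promoters. MAZ-bound peaks had 23.0% (20.8 to 25.4) such starts and retained peaks 12.4% (10.7 to 14.5).

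Most of the nearest starts belonged to protein-coding genes. They did so for 1802 peaks (80.3%, 78.6 to 81.9), against 88.1% of the MAZ-bound promoter peaks, a difference of -7.86 points (-10.23 to -5.41). The retained promoter peaks differed the other way, with 68.4% (65.6 to 71.0) and a difference of 11.91 points (8.77 to 15.09), MAZ-unbound minus retained. Of all annotated genes 39.6% are protein-coding, but that is a share of genes and the 80.3% one of nearest starts, so they are unlike measures. Ties between equally near starts went to protein-coding genes. The other 443 peaks were nearest to lincRNA (143), antisense (83), TEC (transcripts of unsettled coding status, 49), processed transcript (43) and processed pseudogene (39) starts, and to smaller types. Among those were 18 peaks at small nuclear RNAs (snRNAs, 0.802%), 17 at microRNAs (0.757%) and 11 at small nucleolar RNAs (0.490%). These types make up 2.49%, 3.97% and 2.72% of all annotated genes. At retained promoter peaks their shares were 1.49%, 1.49% and 0.789%, so they were not particular to the members. A number of the strongest peaks were at such genes. Many snRNA and snoRNA genes have near-identical copies, so the read placement there is uncertain.

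The peak near Rnu12, the U12 RNA of the minor spliceosome, lay 413 bp past its start with a fold enrichment of 8.81 in ΔCTCF. It was called in ΔCTCF/ΔMAZ with 5.71 and was absent from the list of ΔMAZ. Rnu3a, a copy of the U3 RNA that guides ribosomal RNA processing, had 7.62 in ΔCTCF and, in the knockout, 8.88 untreated and 5.49 after auxin. A RAD21 peak of WT ended 80.0 bp from that peak and a MAZ peak of WT with 5.11 overlapped it. Rn7sk, the RNA that holds the elongation factor P-TEFb inactive, had 6.19 in ΔCTCF alone. Mir302b, a member of the microRNA cluster that is typical of pluripotent cells, had 5.10, again in ΔCTCF alone. The remaining leading genes of other types were Gm31342, a lincRNA, with 8.12 in ΔCTCF alone, Gm31763, an antisense gene, with 7.89 in ΔCTCF and 4.65 in ΔMAZ, and Gm23099, an snRNA gene, which was called in all 3 lists.

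In terms of genes, the summits lay within 1 kb of a start of 2653 genes of any type and of 1977 protein-coding genes. These are 9.01% (8.64 to 9.40) of the 21938 protein-coding genes, and this is the background for the gene lists that follow. A set of 129 genes had 2 or more such peaks, and 181 peaks lay near starts of 2 or more protein-coding genes, so genes are not independent of each other. A MAZ-bound promoter peak lay at 110 of the 1977 as well. Over all protein-coding genes such a peak lay at 1310 of 21938 (5.97%), a level not matched for the CpG content of starts, which is taken up below. A MAZ summit of ΔCTCF lay within 1 kb of a start for 337 of the 1977 (17.0%), against 4767 of all 21938 (21.7%). The lower share is partly fixed by the choice, which left out peaks overlapping MAZ in that list.

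Genes with these peaks mostly had CpG-rich starts, meaning a window of 100 bases to either side with a GC content of at least 50% and an observed-over-expected CpG ratio of at least 0.6. Such a start was found for 1684 of the 1977 (85.2%, 83.5 to 86.7). Of the 12146 genes with a CpG-rich start, 13.9% (13.3 to 14.5) had a MAZ-unbound promoter peak, and of the 9792 others 2.99% (2.67 to 3.35) had one. The contrast was steeper for MAZ-bound promoter peaks, with 10.2% and 0.694%.

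Gene lists were then counted, in order of the role of their products. Among parts of the protein synthesis machinery, the peaks lay at 20 of 78 genes of the mitochondrial ribosome (25.6%, 17.3 to 36.3), 15 of 78 of the cytosolic ribosome (19.2%, 12 to 29.3), 10 of 69 translation factors (14.5%, 8.07 to 24.7) and 6 of 34 aminoacyl-tRNA synthetases (17.6%, 8.35 to 33.5). All of these intervals but those of the translation factors and the synthetases lay above 9.01%. MAZ-bound promoter peaks lay at 6 of the 78 mitochondrial ribosome genes (7.69%, 3.57 to 15.8), against 5.97% of all genes. The lists consist largely of genes with CpG-rich starts, and within those 26.7% (18 to 37.6) of the mitochondrial and 17.9% (10.6 to 28.7) of the cytosolic ribosome genes had a MAZ-unbound promoter peak, against 13.9% of all genes with such a start. The mitochondrial interval lay above that level and the cytosolic one included it.

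The values at single genes of these lists were modest. The peak at Mrpl47, shared with its neighbour Ndufb5, had a fold enrichment of 6.43 in ΔCTCF and overlapped a MAZ peak of WT with 4.49. That at Mrps27, shared with Ptcd2, had 6.43 in ΔCTCF and 6.56 in ΔMAZ, and Mrps35 had 6.03 and 5.79. Mrpl15 had 6.05 in ΔCTCF alone. None of these 4 was called in ΔCTCF/ΔMAZ. Of the 4 cytosolic ribosome genes named by the same rule, 2 were called there. Rps27a, which encodes a ubiquitin fused to a ribosomal protein, had 7.15 in ΔCTCF and 5.04 in ΔCTCF/ΔMAZ, and Rps7 had 6.43 and 5.49, while neither was called in ΔMAZ. Rps12 had 5.07 and Rpl12 4.69 in ΔCTCF alone. Rps3a1, a ribosomal protein gene that was not counted in this list, had 5.33 in ΔCTCF and 6.75 in ΔCTCF/ΔMAZ. Among translation factors, the helicase gene Eif4a2 had 7.06 in ΔCTCF and 7.11 in ΔMAZ, and Eif2b5, a subunit of the exchange factor for eIF2, had 6.54 in ΔCTCF and 4.58 in ΔCTCF/ΔMAZ. Eif4a3, a helicase of the exon junction complex, was called in all 3, with 5.96 in ΔCTCF and, in the knockout, 4.63 untreated and 4.94 after auxin. Of the synthetases, Vars had 5.86 in ΔCTCF and a MAZ peak of WT with 4.21, and Yars2 had 5.48 in ΔCTCF and 5.95 in ΔCTCF/ΔMAZ.

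Genes of protein degradation, transcription, splicing and DNA replication were counted next. The peaks lay at 11 of 48 proteasome genes (22.9%, 13.3 to 36.5), 7 of 30 Mediator genes (23.3%, 11.8 to 40.9), 8 of 44 genes of RNA polymerase II and the general factors (18.2%, 9.51 to 32.0), 6 of 52 splicing factor genes (11.5%, 5.4 to 23.0) and 5 of 35 DNA replication genes (14.3%, 6.26 to 29.4). Among genes with a CpG-rich start the shares were 23.3% (13.2 to 37.7) for the proteasome, 24.1% (12.2 to 42.1) for Mediator and 18.6% (9.74 to 32.6) for RNA polymerase II and its factors, and these 3 intervals included the 13.9% of all such genes. Splicing factor and DNA replication genes had MAZ-bound promoter peaks at 19.2% (10.8 to 31.9) and 17.1% (8.10 to 32.7), and the intervals of both kinds overlap. Med4, a Mediator subunit, had 7.19 in ΔCTCF and 6.42 in ΔMAZ and overlapped a CTCF peak of WT with 40.8. Psmd8, a lid subunit of the proteasome, had 5.72 in ΔCTCF and 6.56 in ΔMAZ, with a MAZ peak of WT (4.49) and a CTCF peak of WT (7.32). The peak at Rfc5, part of the clamp loader of DNA replication, was nearest to the lincRNA Gm15728. It was called in all 3 lists, with 6.67 in ΔCTCF and, in the knockout, 5.02 untreated and 5.71 after auxin. The 4 splicing factor genes named by the rule, Srsf2, Snrpb2, Hnrnpu and Sf3a2, had 4.29 to 4.85 in ΔCTCF and no call in the other RAD21 lists.

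Zinc finger genes were the largest list whose interval lay above 9.01%. Of 462 genes named Zfp, Zbtb, Zkscan or Zscan, which are mostly DNA-binding factors with a few other zinc finger proteins among them, 88 had a MAZ-unbound promoter peak (19.0%, 15.7 to 22.9). MAZ-bound promoter peaks lay at 33 of them (7.14%, 5.13 to 9.86). Within the 312 that had a CpG-rich start the MAZ-unbound share was 21.8% (17.6 to 26.7), against 13.9% of all genes with such a start. Many of these genes lie in clusters of related copies, so they are not independent of each other and their sequence can be alike. Zfp738, on chromosome 13, had 9.92 in ΔCTCF and, in the knockout, 5.91 untreated and 6.16 after auxin. Zfp317 had 7.62 in ΔCTCF and 5.02 in ΔMAZ. Zfp715 and Zfp780b, both on chromosome 7, had 5.96 each in ΔCTCF alone.

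Genes of the stem cell state and its exits were mixed. The pluripotency list had the peaks at 6 of 32 genes (18.8%, 8.89 to 35.3) and MAZ-bound promoter peaks at the same number. Tet1, an enzyme that oxidizes 5-methylcytosine, had 5.24 in ΔCTCF and 4.63 in ΔMAZ, and its relative Tet2 had 5.24 and 5.38. Esrrb, a nuclear receptor of the naive state, had 4.43 and Mycn 4.40, each in ΔCTCF alone. Immediate early genes, which serum and stress switch on, had the peaks at 5 of 20 (25%, 11.2 to 46.9). Among those with a CpG-rich start the share was 27.8% (12.5 to 50.9), an interval that includes the 13.9% of all such genes. Klf6 had 6.14 in ΔCTCF and 5.38 in ΔMAZ, and Egr2 had 5.0 in ΔCTCF alone. Lineage transcription factors had them at 9 of 79 (11.4%, 6.11 to 20.3), among them Lhx3 with 4.94 in ΔCTCF. Clustered histone genes had them at 4 of 67 (5.97%, 2.35 to 14.4), with Hist4h4 called in all 3 lists at 6.16 in ΔCTCF and, in the knockout, 5.54 untreated and 6.75 after auxin.

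At the other end, 0 of 15 glycolysis genes (upper limit 20.4%) and 0 of 20 genes of cohesin and architectural factors (upper limit 16.1%) had such a peak, limits that still include the share of all genes. Olfactory and vomeronasal receptor genes, which are silent outside sensory neurons, had 1 of 1420 (0.0704%, 0.0124 to 0.398). That gene was Olfr823, 944 bp from the summit, with 5.48. Only 2 of the 1420 had a CpG-rich start.

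**Figure D2:**
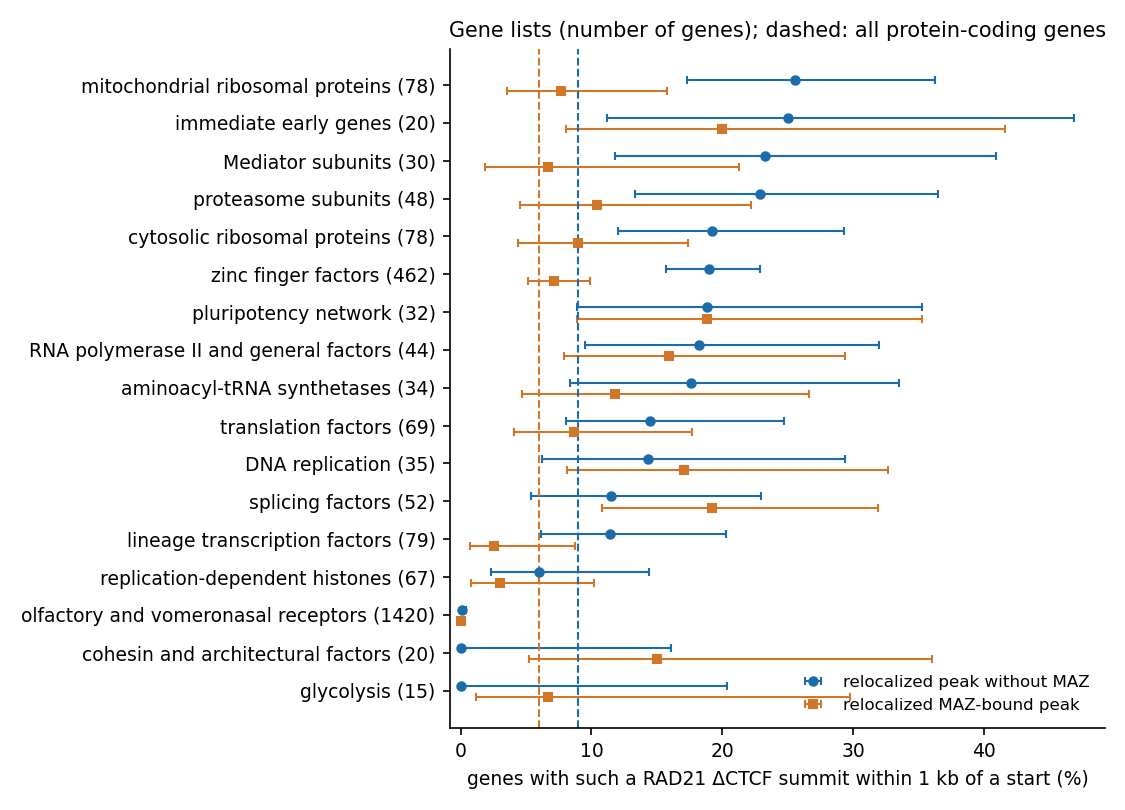
Share of the genes of 17 lists (vertical axis, number of genes in parentheses) with a RAD21 ΔCTCF summit of the MAZ-unbound (circles) or MAZ-bound (squares) relocalized kind within 1 kb of a start (horizontal axis, percent), with Wilson 95% intervals. Dashed lines mark all protein-coding genes, at 9.01% and 5.97%, and the zinc finger, mitochondrial ribosome, cytosolic ribosome, proteasome, Mediator, immediate early, and RNA polymerase II intervals of the MAZ-unbound kind lie above the first line.

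MAZ occupancy before auxin was then looked up, which the choice had not used. Of the 2245 peaks, 256 (11.4%, 10.2 to 12.8) overlapped a MAZ peak of WT although none overlapped one of ΔCTCF. The share was 11.1% over all RAD21 peaks of ΔCTCF and 15.6% over the relocalized ones. It was 70.3% (67.8 to 72.7) for MAZ-bound promoter peaks, 22.7% (20.4 to 25.2) for retained promoter peaks and 2.38% (2.03 to 2.80) for MAZ-unbound peaks away from starts. The gap to the peaks away from starts was 9.02 points (7.70 to 10.45). The MAZ peaks of WT at these promoters had a median fold enrichment of 4.58, below the 5.11 of the whole list and the 5.93 at MAZ-bound promoters. The 2 MAZ lists of the knockout cells hold 33 peaks each, and 0 of the 2245 overlapped one. Over all 17912 RAD21 peaks of ΔCTCF, 2 (0.0112%) overlapped a MAZ peak of ΔMAZ and 1 (0.00558%) a MAZ peak of ΔCTCF/ΔMAZ, each at a retained promoter, so the count of 0 is not particular to these promoters.

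The strongest of these MAZ peaks of WT differed in what lay nearby after auxin. At Cnn3, a gene for the actin-binding calponin 3, MAZ had 11.2 in WT, and in ΔCTCF its nearest MAZ peak ended 31.0 bp from the RAD21 peak, which itself had 3.28. At Gtpbp6, a GTP-binding protein gene, MAZ had 9.49 and the gap was 4.00 bp, and at Tmsb10, a gene for an actin monomer-binding thymosin, MAZ had 8.59 and the gap was 117 bp. At Cnn3 and Gtpbp6 the choice thus turned on a small gap. By contrast, at Otx1, a homeobox gene of the forebrain, MAZ had 9.82 in WT and the nearest MAZ peak of ΔCTCF was 284770 bp away. At Ppp1ca, the catalytic subunit of protein phosphatase 1, MAZ had 8.59 and the gap was 21849 bp. The RAD21 peaks at these 5 genes went from 3.28 at Cnn3 to 7.86 at Ppp1ca in ΔCTCF, and none was called in ΔMAZ or ΔCTCF/ΔMAZ.

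The fate of the peaks in the Maz knockout was the next comparison, with RAD21 lists that the choice did not use. In ΔMAZ, where CTCF is present, 232 of the 2245 were called (10.3%, 9.14 to 11.7), against 47.4% of all RAD21 peaks of ΔCTCF and 10.4% of the relocalized ones. In ΔCTCF/ΔMAZ, 276 were called (12.3%, 11.0 to 13.7), against 29.5% of all and 10.8% of the relocalized peaks. Both shares were thus near those of relocalized peaks at large. A total of 72 peaks (3.21%) were called in both lists, 160 (7.13%) in ΔMAZ alone, 204 (9.09%) in ΔCTCF/ΔMAZ alone and 1809 (80.6%) in neither. Median fold enrichment in ΔCTCF was 4.76, 4.53, 4.48 and 4.05 in these groups.

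These shares depended on how many peaks were compared. Counting only peaks that would pass at the depth of ΔCTCF/ΔMAZ, 17.2% (15.1 to 19.6) were called there, against 38.8% of all and 15.0% of the relocalized peaks that would pass. At the depth of ΔMAZ the share called there was 11.2% (9.88 to 12.7), against 50.5% and 11.3%. When each RAD21 list was limited to its strongest 6400 peaks, which also changes the choice, 390 MAZ-unbound promoter peaks were left and 46.7% (41.8 to 51.6) were called in ΔCTCF/ΔMAZ, against 61.9% of all and 43.3% of the relocalized peaks. The share called in ΔMAZ was then 15.1% (11.9 to 19.0), against 58.6% and 15.5%. Under this setting too the shares were near those of relocalized peaks.

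Promoter peaks with and without MAZ were then set side by side. MAZ-bound ones were called in ΔCTCF/ΔMAZ for 220 of 1306 (16.8%, 14.9 to 19.0), which is 4.55 points more than MAZ-unbound ones (2.15 to 7.04). In ΔMAZ the shares were 11.8% (10.2 to 13.7) and 10.3%, and the difference of MAZ-unbound minus MAZ-bound was -1.46 points (-3.67 to 0.65), an interval that includes 0. With peaks ranked into 5 groups of equal number by fold enrichment over the whole RAD21 list of ΔCTCF, the Mantel-Haenszel odds of MAZ-bound over MAZ-unbound peaks were 1.33 (1.09 to 1.62) in ΔCTCF/ΔMAZ and 1.04 (0.830 to 1.3) in ΔMAZ. The first difference was 2.01 points (-0.96 to 5.26) when a −log10 q of 5 or more was required in every list, and 4.35 points (-3.61 to 12.25) with RAD21 lists of equal length, intervals that both include 0. It was 2.88 points (0.66 to 5.38) with a reciprocal overlap of at least 50% and 2.55 points (0.12 to 5.09) when the MAZ list of WT defined the bound peaks. MAZ-unbound peaks away from starts were called less often in ΔCTCF/ΔMAZ, 8.32% (7.64 to 9.04), 3.98 points below those at promoters (2.49 to 5.55). In ΔMAZ that difference was 0.82 points (-0.60 to 2.33). Within the strength groups the odds of peaks away from starts over those at promoters were 0.541 (0.460 to 0.636) in ΔCTCF/ΔMAZ and 0.8 (0.679 to 0.944) in ΔMAZ, so in ΔMAZ the interval excludes equal odds only once strength is matched. The peaks of these classes differ in width, with a median of 280 bp at MAZ-unbound and 322 bp at MAZ-bound promoters, and its part in the overlaps was not tested. Retained promoter peaks were called in 53.8% and 89.4%.

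**Figure D3:**
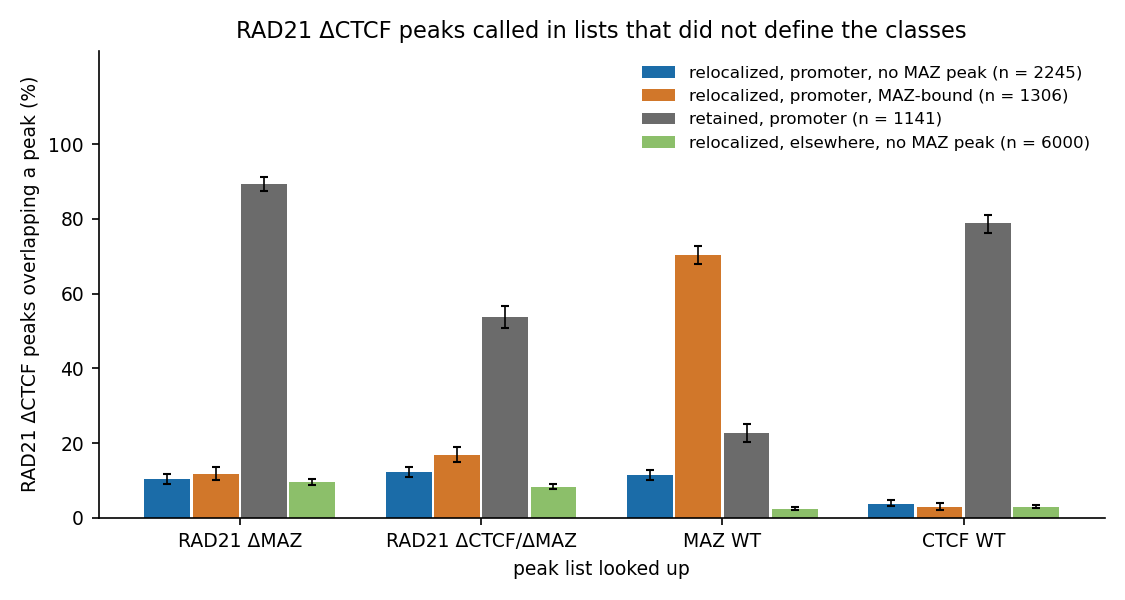
Share of RAD21 ΔCTCF peaks (vertical axis, percent) that overlap a peak of each of 4 lists that did not define the classes (horizontal axis), for the MAZ-unbound and MAZ-bound promoter peaks, the retained promoter peaks and the MAZ-unbound peaks elsewhere, with Wilson 95% intervals. Retained peaks stand at 89.4% in RAD21 ΔMAZ, where the 3 relocalized classes lie between 9.52% and 11.8%. The relocalized classes part in the MAZ list of WT, at 11.4%, 70.3% and 2.38%, a split partly fixed by the MAZ list of ΔCTCF that defined them.

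Within the MAZ-unbound promoter peaks, strength went with the calls. The 5 groups held 771, 720, 496, 238 and 20 of them from weakest to strongest, so few were among the strong RAD21 peaks. In ΔCTCF/ΔMAZ the shares called were 7.13%, 11.5%, 13.1%, 24.4% and 75%, the last being 15 of 20 (53.1 to 88.8). In ΔMAZ they were 5.58%, 8.75%, 11.3%, 23.9% and 65.0%. Retained promoter peaks of the weakest group were called in ΔMAZ for 67.0% (57.8 to 75) and in ΔCTCF/ΔMAZ for 15.2% (9.70 to 23.0).

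**Figure D4:**
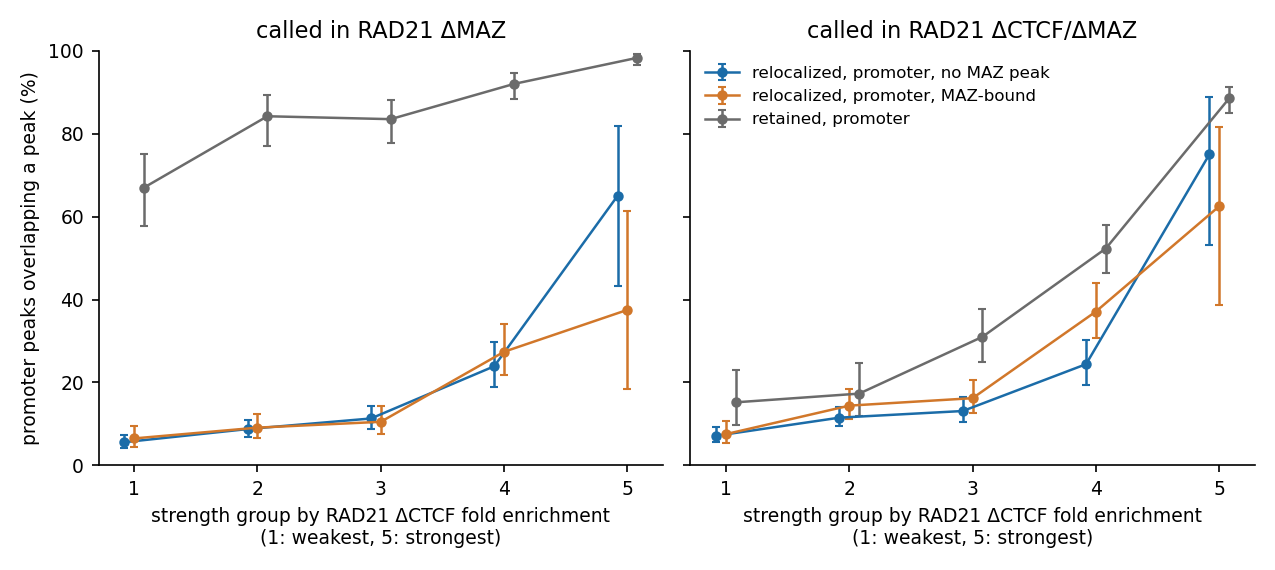
Share of promoter peaks called (vertical axes, percent) in RAD21 ΔMAZ (left) and RAD21 ΔCTCF/ΔMAZ (right) over 5 strength groups by fold enrichment in RAD21 ΔCTCF (horizontal axes, 1 weakest), with Wilson 95% intervals. The MAZ-unbound and MAZ-bound lines run close together up to group 4 on the left (23.9% and 27.4%) and are 24.4% and 37.1% there on the right, and the strongest group holds only 20 and 16 peaks.

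Where they were called elsewhere, the partners were weak in ΔMAZ. The RAD21 peaks of ΔMAZ at these promoters had a median fold enrichment of 5.24, against 9.74 in that list. In ΔCTCF/ΔMAZ the median was 5.49, against 6.52. The members took up 232 of the 20872 peaks of ΔMAZ (1.11%) and 275 of the 6400 of ΔCTCF/ΔMAZ (4.30%). A peak called in ΔMAZ was also called in ΔCTCF/ΔMAZ in 31.0% (25.4 to 37.3), and one not called in ΔMAZ in 10.1% (8.89 to 11.5).

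Calls in ΔCTCF/ΔMAZ were also counted by the nearness of MAZ. With a MAZ peak of WT 14.5% (10.7 to 19.3) were called, and without one 12% (10.7 to 13.5). With a MAZ peak of ΔCTCF within 1 kb the share was 7.62% (5.13 to 11.2), and with none that near it was 13.0% (11.6 to 14.6). Peaks with no MAZ peak of either condition within 1 kb were called in 12.9%. By gene type the shares were 12.2% at protein-coding starts and 12.6% at others. Summits more than 500 bp from the start were called in 8.48% (6.10 to 11.7) and those within 100 bp in 12.8% (10.8 to 15.1).

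Single genes show how the peaks were distributed over the RAD21 lists. The 12 strongest at protein-coding starts had no RAD21 peak in WT by choice, and 10 of them were called in ΔCTCF/ΔMAZ and 8 in ΔMAZ. The strongest was at Pfdn4, a subunit of the prefoldin chaperone, 118 bp upstream of the start, with 13.3 in ΔCTCF and, in the knockout, 10.4 untreated and 12.4 after auxin. The nearest RAD21 peak of WT was 1794 bp away. Cacng2, which encodes the AMPA receptor partner stargazin, had 9.04 in ΔCTCF and, in the knockout, 4.12 untreated and 12.8 after auxin, 75 bp past its start. It was the highest of all the members in ΔCTCF/ΔMAZ. Faap100, of the Fanconi anaemia core complex for DNA repair, had 8.81, 4.63 and 8.70 in the same order. In this pair the lowest value was that of ΔMAZ.

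Bpi, a gene for an antibacterial protein of neutrophils, went the other way, with 8.5 in ΔCTCF and, in the knockout, 15.1 untreated and 6.59 after auxin. Stk4, a kinase of the Hippo pathway, had 8.10, 10.0 and 7.78. Ptpn6, a tyrosine phosphatase of blood cells, had 7.81, 5.05 and 7.03, and Dpp8, a dipeptidyl peptidase, had 7.69, 7.06 and 7.72. Fold enrichments of different libraries are not on a common scale, so these orders are a description. Tbrg1, a growth regulator tied to p53, had 9.51 in ΔCTCF and 5.83 in ΔCTCF/ΔMAZ, and Sgpp1, a phosphatase of sphingosine 1-phosphate, had 8.10 and 6.87. Neither was called in ΔMAZ. Slc25a26, the mitochondrial carrier of S-adenosylmethionine, had 8.34 in ΔCTCF alone, as did Ppp1ca with 7.86.

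The peaks with the highest values in ΔCTCF/ΔMAZ were next taken from the 72 called in both knockout lists. Mrpl34, of the mitochondrial ribosome, had 4.70 in ΔCTCF and, in the knockout, 7.70 untreated and 8.53 after auxin. Snapc5, a subunit of the complex that activates snRNA genes, had 5.69, 3.52 and 8.31. AI506816, a non-coding transcript, had 6.67, 12.7 and 8.24, and Gm23099 had 7.86, 9.02 and 8.35. The peaks at Mrpl34, Gm23099 and AI506816 overlapped a CTCF peak of WT, with 28.5, 33.4 and 22.0, and that at Snapc5 did not.

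CTCF was therefore looked up at all members. Of the 2245, 85 (3.79%, 3.07 to 4.66) overlapped a CTCF peak of WT, against 41.1% of all RAD21 peaks of ΔCTCF, 3.06% of the relocalized ones and 78.8% (76.3 to 81.1) of retained promoter peaks. These sites carried CTCF in WT without a called RAD21 peak. The CTCF peaks at them ranged from 4.55 to 64.2 in fold enrichment. Their median was 22.6, and that of the 26394 CTCF peaks of WT was 13.3. After auxin 25 members (1.11%, 0.755 to 1.64) overlapped a CTCF peak of ΔCTCF, against 11.9% of all RAD21 peaks of ΔCTCF. In ΔCTCF/ΔMAZ 24 (1.07%) overlapped one, against 13.1%. The share with residual CTCF was 0.88 points above that of MAZ-bound promoter peaks (0.31 to 1.43).

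Members with a CTCF peak of WT were called more often in ΔMAZ. Of the 85, 50 (58.8%, 48.2 to 68.7) were called there, against 182 of the 2160 without (8.43%, 7.33 to 9.67). In ΔCTCF/ΔMAZ 21 (24.7%, 16.8 to 34.8) were called, against 255 (11.8%, 10.5 to 13.2). Of the 25 with a CTCF peak of ΔCTCF, 19 (76.0%, 56.6 to 88.5) were called in ΔMAZ and 12 (48.0%, 30.0 to 66.5) in ΔCTCF/ΔMAZ. Without the 85 the share called in ΔCTCF/ΔMAZ was thus 11.8% and that in ΔMAZ 8.43%. CTCF was not degraded in ΔMAZ, but it was not degraded in WT either, where by choice no member had a RAD21 peak. The WT library was shallower than that of ΔMAZ, as ΔCTCF was 2.18 and 1.69 times as deep as these. The knockout libraries carry the name of 1 clone. The cause of the difference in calls was not tested.

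Single genes at the upper end of the CTCF values show both proteins side by side. At Psmd6, a proteasome subunit gene, CTCF had 64.2 in WT, 73.7 in ΔMAZ, 14.2 in ΔCTCF and 25.9 in ΔCTCF/ΔMAZ, while RAD21 had 5.28 in ΔCTCF and 5.60 in ΔMAZ. At Dpp8 CTCF had 46.7 in WT and 14.5 in ΔCTCF. At Pfdn4 it had 43.3 in WT and 12.6 in ΔCTCF. Among the 12 strongest peaks at protein-coding starts, Pfdn4, Bpi, Stk4, Ppp1ca and Dpp8 overlapped a CTCF peak of WT and 7 did not, among them Zfp738, Tbrg1, Cacng2 and Faap100. Crls1, the gene for cardiolipin synthase, shows the other extreme, with CTCF at 46.6 in WT and RAD21 at 2.59 in ΔCTCF alone.

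The DNA under the summits was rich in CpG but less so than at MAZ-bound promoters. In windows reaching 100 bases to either side the median GC content was 61.2% at MAZ-unbound promoter peaks, 68.7% at MAZ-bound ones, 58.7% at retained ones and 59.7% over all 41488 protein-coding starts. At 1 kb from the MAZ-unbound summits it was 45.8%. CpG-rich windows made up 64.4% (62.4 to 66.3) at MAZ-unbound and 83.7% (81.6 to 85.6) at MAZ-bound peaks, and 49.7% over all starts.

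The 14 strings were searched on both strands of these windows, and a match is a run of letters and not a site. Windows of peaks were centred on the summit and those of starts on the start itself. Only 42.1% of MAZ-unbound summits lay within 100 bp of a start. CpG-rich windows were also more frequent at MAZ-unbound peaks (64.4%) than over all starts (49.7%). Comparisons with starts are therefore not matched for position or composition. Of the G-rich strings, 3 were less frequent at MAZ-unbound peaks than at starts in general. The MAZ core GGGAGGG was in 12.8% (11.5 to 14.2) of MAZ-unbound windows, 28.3% (26 to 30.8) of MAZ-bound ones and 17.8% of all starts. The PATZ1-like G box GGGGNGGGG was in 11.7% (10.4 to 13.1), 35.4% (32.8 to 38.0) and 19.2%, and the SP/KLF box GGGGCGGGG, which it contains, in 7.44% (6.42 to 8.60), 25.2% (22.9 to 27.6) and 11.5%. The choice split relocalized promoter peaks by a MAZ peak, so the opposite sides of these shares are partly fixed by it. Over both kinds together the MAZ core was in 18.5% (17.3 to 19.8), the PATZ1-like G box in 20.4% (19.1 to 21.8) and the SP/KLF box in 14.0% (12.9 to 15.1). Of these intervals that of the SP/KLF box lay above the level of starts and the others included it. The GGA repeat GGAGGAGGA was in 2.54%, 3.29% and 2.89%. The part of the CTCF core, CCAGGGGGC, was in 0.668% (0.405 to 1.10) of MAZ-unbound windows, 0.817% of all starts and 5.78% (4.57 to 7.29) of retained promoter windows.

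Strings of other promoter factors lay on both sides of the level of starts. The ETS site CCGGAAG was in 12.1% (10.8 to 13.5) of MAZ-unbound windows, 10.5% (8.94 to 12.3) of MAZ-bound ones and 9.11% of all starts, and had the largest excess over starts in percentage points. The NRF1 site GCGCATGCG was in 2.23% (1.69 to 2.92), 1.99% and 1.61%. The E box CACGTG was in 6.59% (5.64 to 7.69), 6.74% and 5.11%. The cyclic AMP response element TGACGTCA was in 2.27% (1.73 to 2.97), 1.38% and 1.79%. The MAZ-unbound intervals of the ETS, NRF1 and E box strings lay above the level of starts, and that of the last string included it. Below or near the level of starts were the YY1 site AAGATGGCG (1.25%, against 1.91%), the NFY box AGCCAAT (4.86%, 5.65%), the BANP site CTCGCGAGA (0.490%, 0.665%), the ZNF143/THAP11 site ACTACAATT (0.312%, 0.275%) and the TATA box TATAAA (3.03%, 7.20%).

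**Figure D5:**
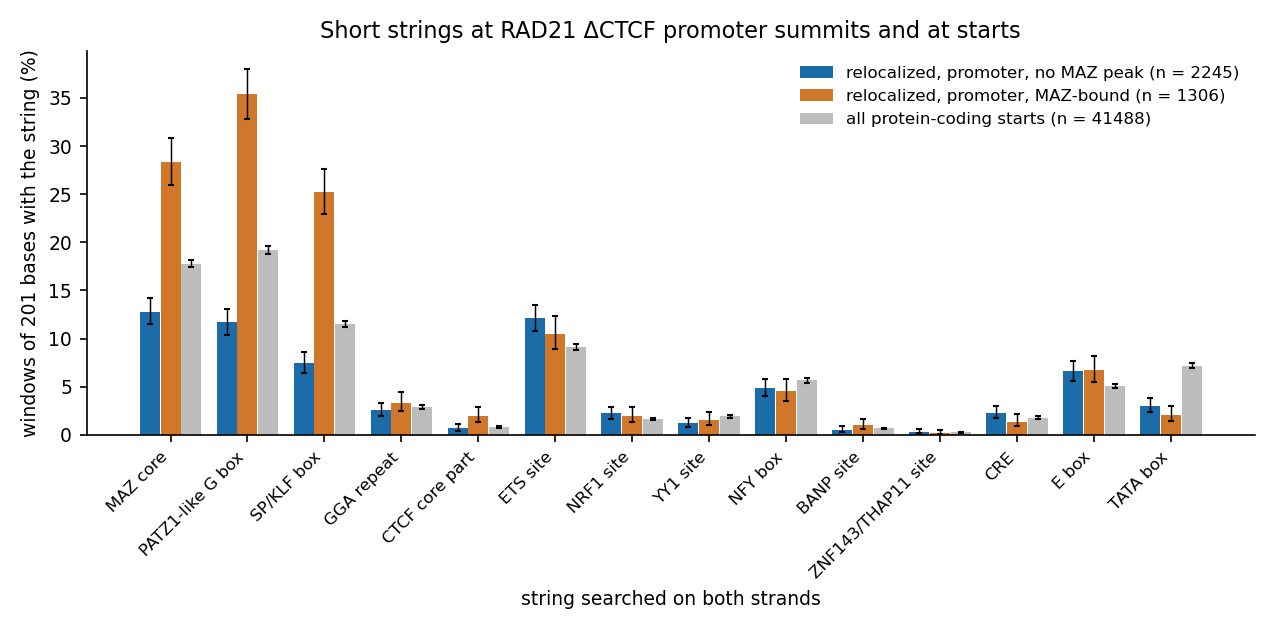
Share of windows that reach 100 bases to either side (vertical axis, percent) that hold each of 14 strings on either strand (horizontal axis), for MAZ-unbound and MAZ-bound promoter summits and all protein-coding starts, with Wilson 95% intervals. The 3 G-rich strings on the left stand at 12.8%, 11.7% and 7.44% for the MAZ-unbound peaks, below all starts (17.8%, 19.2%, 11.5%) and the MAZ-bound peaks, and the ETS site stands above all starts.

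MAZ in WT and the fate of RAD21 were then counted by string. Members with the MAZ core overlapped a MAZ peak of WT in 21.6% (17.2 to 26.7) and those without in 9.91% (8.66 to 11.3), while 11.5% (8.31 to 15.7) and 12.4% (11.0 to 13.9) were called in ΔCTCF/ΔMAZ. In ΔMAZ 6.27% (4.00 to 9.70) and 10.9% (9.62 to 12.4) were called. With the SP/KLF box 28.7% (22.4 to 36.0) overlapped a MAZ peak of WT, against 10.0% without. The 57 members with the GGA repeat were called in ΔMAZ in 24.6% (15.2 to 37.1), against 9.96% without it. With the ETS site 15.8% (12 to 20.6) were called in ΔCTCF/ΔMAZ, against 11.8% (10.5 to 13.3).

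Over the chromosomes the number of members per 100 protein-coding genes went from 14.2 on chromosome 13 to 7.76 on chromosome 14, with the X chromosome far below at 1.27. The X chromosome held 12 of the 2245 (0.535%, 0.306 to 0.932), 0 of the 1306 MAZ-bound promoter peaks (up to 0.293%) and 6 of the 1141 retained ones (0.526%). It held 1.92% of the RAD21 peaks of WT, 0.944% of all RAD21 peaks of ΔCTCF and 4.32% of protein-coding genes. A low share on the X chromosome was thus shared by promoter peaks of all 3 classes.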

How the data were processed

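ChIP-seq peak lists of RAD21, MAZ and CTCF in 4 conditions were used, 1 list each, and groups were taken from the sample titles. The authors aligned reads to mm10 by Bowtie 2, filtered them for quality and PCR duplicates by SAMtools, and ran MACS on each library to call narrow peaks. Their text names a MACS 1 release with MACS 2 defaults, and does not state whether an input control was used. Heat maps, density plots and tracks, which were not used here, were scaled by Drosophila spike-in reads, or by total reads for RAD21. The deposited columns used were the position, the fold enrichment (a ratio of pileup to background, each plus 1), the −log10 p and −log10 q values and the offset of the summit. The deposited score, which equals the −log10 q value times 10 rounded down, was not used.

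Peaks were matched by an overlap of at least 1 bp (checked against bedtools 2.31.1 on 11 lists, with 0 peaks that differed). Transcript starts came from the GENCODE vM21 basic set. Pileups were solved from fold enrichment and −log10 p, and the lowest background over the smallest width served as a measure of depth. Wilson and Newcombe 95% intervals, Mantel-Haenszel odds over 5 strength groups and string counts were computed with Python 3.11.15, NumPy 2.4.6, pandas 2.3.3, SciPy 1.17.1 and pysam 0.24.0, and the scripts were tested on simulated data. No test was run, since each group had 1 list.

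Named peaks were the 12 of highest fold enrichment at protein-coding starts, the 8 highest in ΔCTCF/ΔMAZ among those called in both knockout lists, the 5 with the highest MAZ value in WT, up to 4 per gene list, the 5 highest at other gene types and the 4 nearest the 1 kb limit. One gene that this rule names is not reported here. Crls1, Rn7sk, Mir302b and Rps3a1 were named after their values were seen. The members, gene lists and strings were chosen with earlier results of these data known. Alternatives were another overlap, a q limit, other distances, window sizes, RAD21 lists of equal length and a depth limit.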

Additional observations from a re-analysis of the deposited data

How the results depend on the processing

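No paired analysis was possible because there was a single list in every group. Of 82 alternative values for 11 results, 59 stayed within the interval or within 1.5 times the count, 23 moved and 0 reversed. The cause of the moves was not tested unless the setting itself changes the peaks counted. Where a −log10 q of 5 or more was required there were 1239 members and 1115 protein-coding genes with one, 10.0% were called in ΔCTCF/ΔMAZ, 41.5% lay downstream, and MAZ-bound minus MAZ-unbound peaks called in ΔCTCF/ΔMAZ came to 2.01 points. With RAD21 lists of equal length there were 390 members, of which 15.1% were called in ΔMAZ and 46.7% in ΔCTCF/ΔMAZ. Among peaks that would pass at the depth of ΔCTCF/ΔMAZ 17.2% were called there. A reciprocal overlap of at least 50% gave 7.01% called in ΔMAZ, 8.40% in ΔCTCF/ΔMAZ and 9.02% with a MAZ peak of WT. Allowing peaks up to 500 bp apart gave 12.1% in ΔMAZ, 14.3% in ΔCTCF/ΔMAZ and 5.39% with a CTCF peak of WT. With 2.5 kb to the start, 9.67% had a MAZ peak of WT, 74.1% were nearest a protein-coding start and 23.7% had starts of both strands. With 500 bp these last values were 82.5% and 18%, and with protein-coding starts only 8.63% had starts of both strands. The MAZ core was in 6.99% of the shorter and 23.3% of the longer windows tried. Depth limits what is missing: 49.4% of the members would have passed at the depth of ΔCTCF/ΔMAZ. Intervals cover counting error within single libraries and say nothing of the spread between cultures or knockout clones.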
